A study of Mus musculus with 8 samples.

Results

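Protocadherins are cadherin-type adhesion proteins of the neuronal surface, and the mouse genome carries them both as tandem clusters and as scattered single genes. In the alpha and gamma clusters each gene has a variable first exon with a promoter of its own, which is spliced to constant exons at the end of the cluster. Transcripts of a cluster that reach the last constant exon therefore share that exon. Clustered isoforms mediate homophilic recognition between neurons and self-avoidance of dendrites, and the single genes, many of them of the delta type, act in axon growth, sorting and synapse formation.

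The members were all genes whose symbol starts with Pcdh in either count table, 46 of 10060 symbols listed. Of these, 36 are clustered (14 of the alpha and 22 of the gamma cluster) and 10 are non-clustered: Pcdh1, Pcdh7, Pcdh9, Pcdh10, Pcdh11x, Pcdh15, Pcdh17, Pcdh18, Pcdh19 and Pcdh20. No gene of the beta cluster, whose genes consist of single exons, was listed in either table. Total brain of 5 mice carrying Cstf2 D50A and of 3 wild-type littermates was compared, all untreated, aged 50 days and on the C57BL/6NCrl background. The labels used here give neither the sex of the animals nor the zygosity of the X-linked Cstf2 allele, and Pcdh11x and Pcdh19 are X-linked as well. Cstf2 D50A is an aspartate-to-alanine exchange at residue 50 in the RNA recognition motif of a cleavage stimulation factor subunit, and the colony was backcrossed to that strain and then bred within itself. Libraries of polyadenylated 3′ ends were counted at a proximal and a distal site of the 3′-most exon (the within-exon table) and, in a second table, once in an exon further upstream and once in the 3′-most exon (the between-exon table). The question was whether the choice of 3′ end differs between the genotypes. Because whole brain was homogenised, fewer cells of a type and less RNA per cell cannot be told apart in any value below.

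Most clustered rows were copies of one another. In the within-exon table all 22 gamma genes carried one set of counts in all 8 libraries, and so did 3 rows under other symbols, Gm37013, Gm38666 and Gm38667, which RefSeq's GRCm38.p6 table lists with alpha protocadherin synonyms. The 14 alpha genes carried a second set. The 45 protocadherin rows of that table therefore held 11 distinct sets of counts, 2 clustered and 9 non-clustered. Both gamma sites lie in the shared last exon, at positions 38001497 and 38001527 of mm9, 30 bases apart. The median distance over all pairs was 629 bases, and 640 pairs (8.05%) lay at most 30 bases apart. The alpha sites, at 37346547 and 37346807, lie 260 bases apart. The table gives no chromosome for them, and RefSeq places both clusters and Pcdh1 on chromosome 18.

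The between-exon table listed no alpha gene. It listed the 22 gamma genes with 1 shared count for the 3′-most exon but 8 different counts for the upstream site. These upstream counts were nested. Taken in RefSeq's gene order from Pcdhga1 to Pcdhgc5, the count was never above that of the preceding gene in any library, in 21 of 21 neighbouring pairs. Only the steps between the 8 different counts could have broken this order, since the other neighbours carried equal counts. Pcdhga3, Pcdhgb1 and Pcdhga4 shared 1 set, the 13 genes from Pcdhga5 to Pcdhga12 another, and Pcdhga1, Pcdhga2, Pcdhgb2, Pcdhgc3, Pcdhgc4 and Pcdhgc5 had 1 each. The 13 distinct protocadherin rows of that table thus hold 5 non-clustered genes and 8 overlapping counts of a single cluster. How the upstream region of each gene was bounded is not stated by the files or labels, so the nested counts give no position of an end within the cluster.

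**Figure D1:**
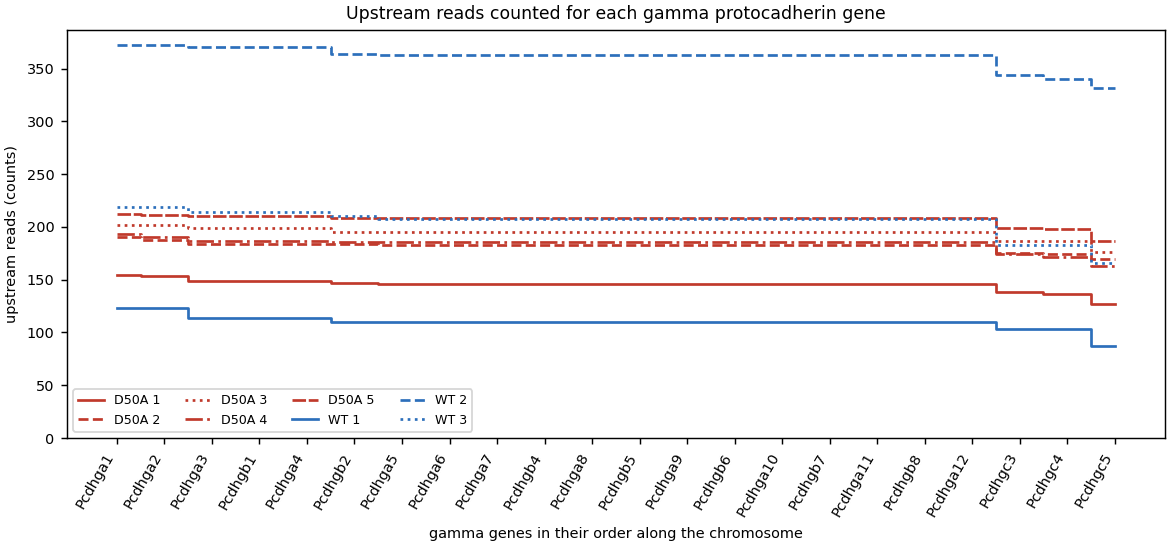
Upstream reads (counts, vertical axis) recorded for each of the 22 gamma protocadherin genes in their order along the chromosome (horizontal axis), one line per library, red for the 5 Cstf2 D50A and blue for the 3 wild-type animals. The lines never rise from left to right, and the largest steps lie before Pcdhgc3 and before Pcdhgc5, the last gene of the row.

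Of the 1665 upstream reads counted for Pcdhga1 over all libraries, 1408 (84.6%) were also counted for Pcdhgc5, the gene nearest to the constant exons. A further 95 reads (5.71%) were counted for Pcdhga12 and not for Pcdhgc3, and 84 (5.05%) for Pcdhgc4 and not for Pcdhgc5. Steps at the other genes were small: 31 reads between Pcdhga2 and Pcdhga3, 23 between Pcdhga4 and Pcdhgb2, 11 between Pcdhgc3 and Pcdhgc4, 7 between Pcdhga1 and Pcdhga2 and 6 between Pcdhgb2 and Pcdhga5. The part also counted for Pcdhgc5 was 82.5%, 89.5%, 87.1%, 84.5% and 88.2% in mutants 1 to 5 and 70.7%, 89.25% and 75.8% in wild types 1 to 3. Its mean was 86.35 ± 2.85% in mutants and 78.6 ± 9.57% in wild types (SD, n = 5 and 3), with overlapping genotypes, and it was not tested.

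The libraries differed in depth and along a main axis of levels. With copied rows all counted, they held 10177902 to 13449054 reads in mutants and 9616953 to 17530761 in wild types in the within-exon table. In the between-exon table they held 7768925 to 10279635 in mutants and 7075383 to 13145966 in wild types. With copied rows counted once, the within-exon ranges were 10002630 to 13227779 in mutants and 9519942 to 17347320 in wild types. The between-exon ranges were then 7716181 to 10211916 in mutants and 7065475 to 13119756 in wild types. A principal component analysis of log2 CPM (log2 of counts scaled to a common library total, with TMM factors) over 6574 other rows, with protocadherins left out, placed 71.6% of the variance on the first component. Only rows averaging 100 or more reads per library entered it. Mutants 1, 4 and 2 scored 0.412, 0.392 and 0.319, mutant 3 scored 0.0423 and mutant 5 scored -0.296, while wild type 3 scored 0.103 and wild types 2 and 1 scored -0.46 and -0.513. Mutant 5 therefore lay beside wild types 1 and 2, and wild type 3 among the mutants. Cstf2 mRNA stood at 8.54 ± 0.14 log2 CPM in mutants and 8.54 ± 0.13 in wild types (SD, n = 5 and 3, edgeR adjusted p = 0.994). A coding exchange need not alter this level, which leaves the genotype labels unchecked.

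The gamma cluster was among the most variable rows of the data. Summed over both sites, its level was 8.06, 7.73, 6.82, 8.01 and 6.14 log2 CPM in mutants 1 to 5 and 4.89, 5.65 and 7.48 in wild types 1 to 3, with an 8.98-fold range between libraries. The genotypes overlapped: mutants 3 and 5 lay below wild type 3. Its SD over the libraries exceeded that of 99.4% of 7818 tested rows (1.18, against a median of 0.263 in log2 CPM). The order of the 8 libraries by gamma level was the same as their order on the first component, in both tables, which share reads. How many of all rows stand in this order was not counted. The part of this axis in the gamma values was not tested. Mutants averaged 7.35 ± 0.84 and wild types 6.01 ± 1.33 log2 CPM (SD, n = 5 and 3), a log2 change of 1.10 by edgeR (SE 0.602, adjusted p = 0.363). It ran from 0.68 without wild type 1 to 2.20 without wild type 3 when each library was left out in turn.

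**Figure D2:**
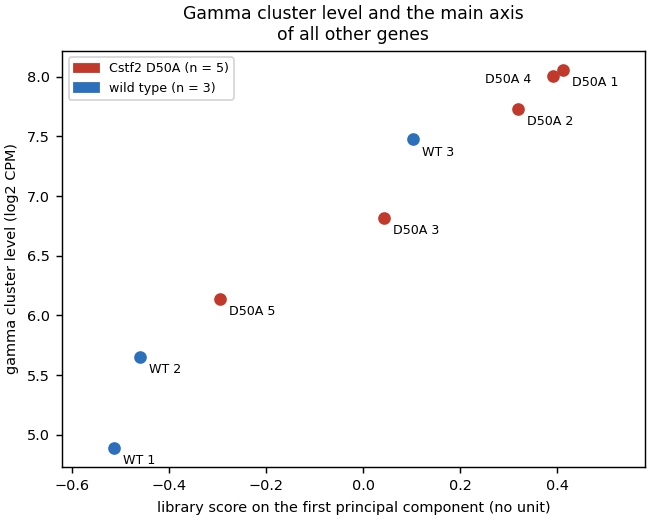
Level of the gamma cluster (log2 CPM, vertical axis) against the score of each library on the first principal component (horizontal axis, no unit). The component covers the other rows averaging 100 or more reads per library. Red marks Cstf2 D50A and blue wild type. The libraries fall in the same order on both axes, from wild type 1 at 4.89 to mutant 1 at 8.06.

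The spread lay in the reads of the last exon and not in the upstream reads. Reads per site are given in RPM (reads scaled to a common library total), without the TMM factors used for log2 CPM, so the scales differ slightly. RPM used the totals with copied rows counted once. Upstream reads of the whole cluster (the Pcdhga1 row) stood at 19.96, 21.0, 21.3, 18.9 and 24.3 RPM in mutants 1 to 5 and at 17.4, 28.35 and 24.6 in wild types 1 to 3, a 1.63-fold range. Reads of the 3′-most exon stood at 361, 289, 148, 349 and 89.7 RPM in mutants and at 37.65, 64.6 and 241 in wild types, a 9.59-fold range. Within that exon the distal site ranged 11.0-fold over the libraries and the proximal site 5.15-fold. The proximal site held 16.8, 19.5, 14.97, 18.2 and 13.3 RPM in mutants and 3.78, 9.57 and 19.2 in wild types. The distal site held 261, 200.4, 97.2, 251 and 54.85 RPM in mutants and 23.6, 38.1 and 164 in wild types. At the proximal site wild type 1 was lowest and wild type 3 near mutant 2, the highest mutant; at the distal site mutants 1, 4 and 2 lay above every wild type and mutants 3 and 5 below wild type 3.

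**Figure D3:**
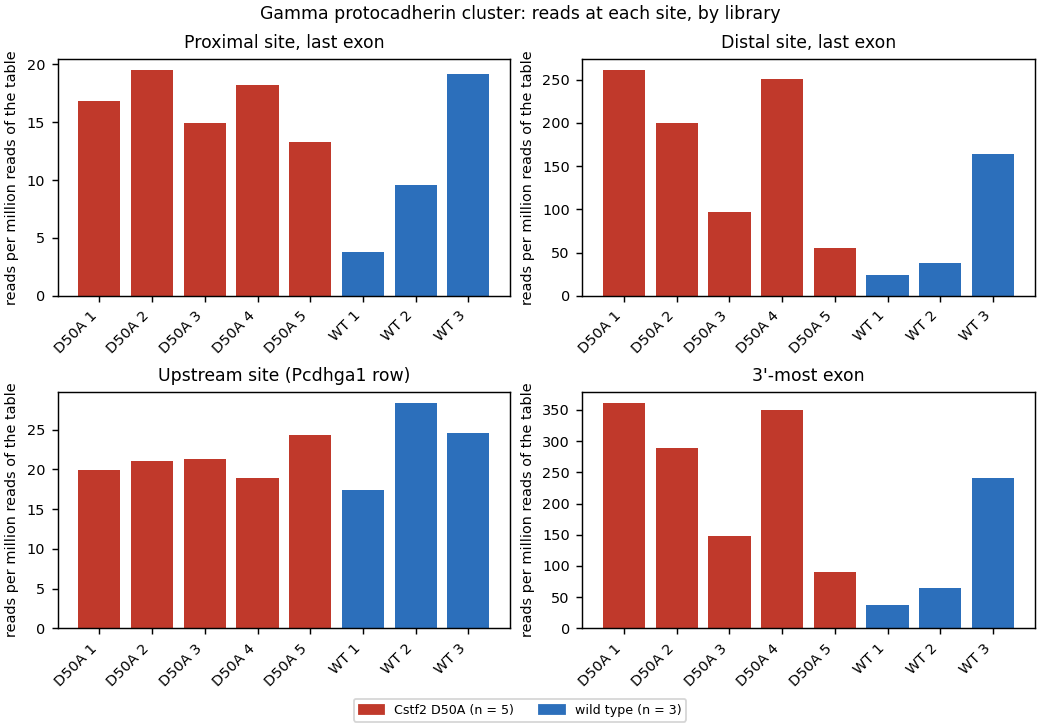
Reads of the gamma cluster in RPM (reads scaled to a common library total, vertical axes, each starting at 0 with its own range) at the proximal, distal and upstream sites and in the 3′-most exon, one bar per library, red for the 5 Cstf2 D50A and blue for the 3 wild-type animals. The upstream bars lie between 17.4 and 28.35 in all libraries, while those of the 3′-most exon run from 37.65 to 361.

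As a share, the 3′-most exon held 94.8%, 93.2%, 87.4%, 94.9% and 78.7% of the reads of the Pcdhga1 row in mutants 1 to 5 and 68.4%, 69.5% and 90.75% in wild types 1 to 3. The means were 89.8 ± 6.92% in mutants and 76.2 ± 12.6% in wild types (SD, n = 5 and 3), with no Wilson 95% interval wider than ±4.6 percentage points. Wild type 3 lay above mutants 3 and 5, so the genotypes overlapped. The libraries stood in their order on the first component, apart from a swap of mutants 1 and 4. The part of that axis in the share was not tested. The edgeR log2 change in usage was 1.53 (SE 0.587, unadjusted p = 0.0209, adjusted p = 0.301), and over the 8 nested rows it ran from 1.39 for Pcdhgc5 to 1.54 for Pcdhga2. All 8 had an unadjusted p under 0.05, but since they count largely the same reads they amount to 1 observation, and 10.3% of 5983 rows had such a p in this direction. No protocadherin passed at an adjusted p under 0.05 (0% of rows by edgeR; DESeq2 called 0.0836%, none a protocadherin). For Pcdhgc5, the row with the fewest upstream reads, the share was 95.6%, 93.9%, 88.85%, 95.6% and 80.7% in mutants and 75.35%, 71.9% and 92.8% in wild types, with the same overlap. Gamma rows did pass when 1 of 2 libraries was left out: 7 of the 8 gamma rows passed without mutant 5 (Pcdhga1 log2 change 1.88, edgeR adjusted p = 0.0413) and 7 without wild type 3 (2.23, adjusted p = 0.0451). The row that missed the threshold in both was Pcdhgc5, whose lowest adjusted p was 0.0518. In those fits 3.88% and 2.17% of all rows passed, and the adjusted p of Pcdhga1 ran from 0.0413 to 0.679 over its alternatives.

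Within the last exon the gamma distal site held 93.95%, 91.1%, 86.7%, 93.2% and 80.5% of the reads in mutants 1 to 5 and 86.2%, 79.9% and 89.5% in wild types 1 to 3. Mutant 5 and wild type 2 were lowest and the genotypes overlapped. The means of 89.1 ± 5.59% in mutants and 85.2 ± 4.88% in wild types (SD, n = 5 and 3) gave a log2 change of 0.60 by edgeR (SE 0.444, adjusted p = 0.507). Without wild type 2 it was 0.28, and without wild type 3 it was 0.91.

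The alpha cluster ended mainly at its proximal site. Its 14 genes shared 372, 439, 385, 662 and 315 proximal reads in mutants and 195, 414 and 541 in wild types, beside 31, 35, 21, 20 and 23 distal reads in mutants and 25, 20 and 13 in wild types. The distal share was 6.00 ± 1.97% in mutants and 6.11 ± 4.69% in wild types (SD, n = 5 and 3, edgeR log2 change 0.16, SE 0.514, adjusted p = 0.891), and the change turned to -0.37 without wild type 3. Wild types 1 and 3 were the highest and the lowest library, at 11.4% and 2.35%. The cluster's level was 5.23 ± 0.26 log2 CPM in mutants and 4.97 ± 0.49 in wild types (edgeR log2 change 0.23, SE 0.233, adjusted p = 0.582), a change of 0.07 without wild type 1 and 0.57 without wild type 3. It spanned a 1.97-fold range, against the 8.98-fold range of the gamma cluster.

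**Figure D4:**
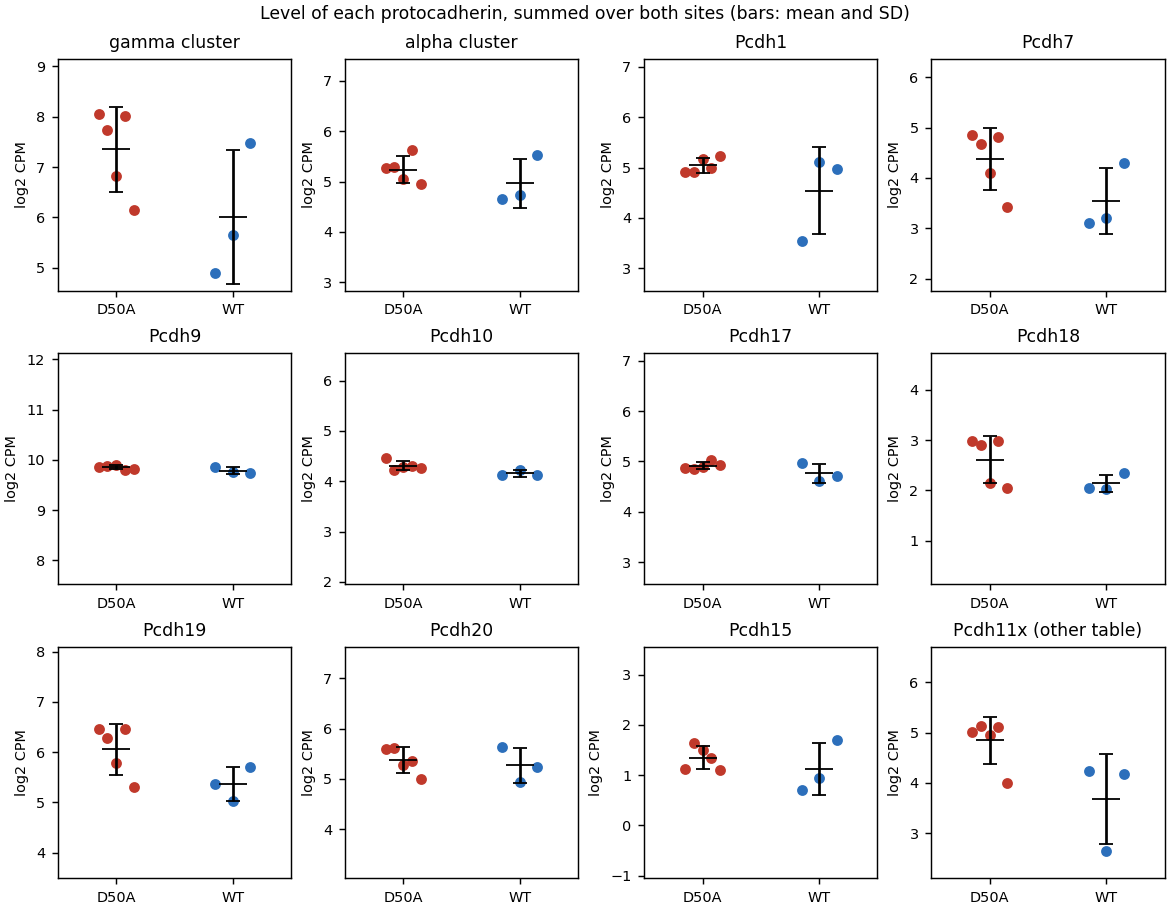
Level of each distinct protocadherin (log2 CPM of both sites together, vertical axes of equal span) in the 5 Cstf2 D50A animals (red, left) and the 3 wild-type animals (blue, right), with bars for the mean and SD. Pcdh11x comes from the between-exon table and all others from the within-exon table, and in no panel do the genotypes separate. The gamma cluster runs from 4.89 to 8.06, while Pcdh9 stays between 9.73 and 9.90.

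Among the delta-1 protocadherins Pcdh9 had the most reads of the non-clustered genes. Its level was 9.85 ± 0.04 log2 CPM in mutants and 9.78 ± 0.07 in wild types (edgeR log2 change 0.07, SE 0.102, adjusted p = 0.714), with a 1.13-fold range over all libraries. Its distal site, 73 bases from the proximal one, held 96.2%, 95.9%, 95.9%, 95% and 94.1% in mutants and 94.2%, 93.2% and 94.7% in wild types. Mutant 5 lay below wild types 1 and 3, while Wilson intervals reached only ±0.504 percentage points. The log2 change was 0.41 (SE 0.187, edgeR adjusted p = 0.383). In the between-exon table the last exon held 94.2%, 94.6%, 93.4%, 93.9% and 92.0% in mutants and 92.5%, 91.7% and 93.8% in wild types, again with overlap (log2 change 0.23, SE 0.213, edgeR adjusted p = 0.641).

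Pcdh7, known as NF-protocadherin for its role in neural fold and axon development in Xenopus, had a 3.36-fold range of levels in the within-exon table. It stood at 4.86, 4.68, 4.10, 4.82 and 3.42 log2 CPM in mutants 1 to 5 and at 3.11, 3.21 and 4.31 in wild types 1 to 3, in the same order of libraries as the gamma cluster in this table. The log2 change was 0.82 (SE 0.379, edgeR adjusted p = 0.337) and 1.32 without wild type 3. In the between-exon table, where the libraries stood in another order, it was 0.54 (SE 0.237, unadjusted p = 0.0435, adjusted p = 0.325). Its 3′-most exon held 51.1%, 49.6%, 41.9%, 53.1% and 38.5% of the reads in mutants and 29.9%, 39.6% and 50.1% in wild types (log2 change 0.42, SE 0.318, edgeR adjusted p = 0.552), with overlapping genotypes. That change was 0.12 without wild type 1 and 0.73 without wild type 3. Inside that exon the distal share was 90.7%, 92.6%, 93.4%, 92.3% and 93.1% in mutants and 94.7%, 98.0% and 93.6% in wild types, the only within-exon pair of the 11 whose genotypes did not overlap. The mutants lay below the wild types there, as in 1.64% of all 7818 pairs, and the test did not pass (log2 change -0.78, SE 0.374, edgeR adjusted p = 0.39). It was -0.37 without wild type 2 and -1.27 without wild type 3. The proximal site had 28, 23, 14, 30 and 8 reads in mutants and 4, 3 and 15 in wild types, so each share rests on few proximal reads.

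Pcdh11x, an X-linked delta-1 gene with 1 mutant library far below the others in level, had nearly all its reads in the 3′-most exon. Upstream reads numbered 2, 3, 5, 7 and 3 in mutants and 4, 5 and 5 in wild types, against 256, 320, 286, 358 and 131 in the 3′-most exon of mutants and 121, 71 and 159 in that of wild types. The share of the 3′-most exon was 99.2%, 99.1%, 98.3%, 98.1% and 97.8% in mutants and 96.8%, 93.4% and 96.95% in wild types. All mutants lay above all wild types, as in 4.25% of rows, but Wilson intervals reached ±5.83 percentage points, more than the gap between the genotypes. The log2 change in usage was 1.46 (SE 0.528, unadjusted p = 0.015, edgeR adjusted p = 0.298), and 10.3% of rows had an unadjusted p under 0.05 in this direction. Scaled to RPM, reads of the 3′-most exon overlapped, with mutant 5 at 15.03 below wild types 1 and 3 at 17.1 and 17.9. The level was 4.85 ± 0.47 log2 CPM in mutants and 3.69 ± 0.90 in wild types (SD, n = 5 and 3, log2 change 1.08, SE 0.365, unadjusted p = 0.0136, edgeR adjusted p = 0.323), with mutant 5 at 4.01 below wild types 1 and 3 at 4.24 and 4.17. Without wild type 2 the change in level was 0.70. Pcdh1, a delta-1 gene known from airway epithelium as well as brain, stood at 4.92, 4.91, 5.17, 4.999 and 5.235 log2 CPM in mutants and at 3.55, 5.10 and 4.97 in wild types. Wild type 1 alone set its log2 change, which was 0.36 (SE 0.292, edgeR adjusted p = 0.498) with that library and 0.01 without it. The distal share of Pcdh1 was 84.7%, 88.0%, 78.8%, 79.8% and 75.8% in mutants and 88.2%, 72.9% and 79.5% in wild types, with the extremes both in wild types (log2 change 0.18, SE 0.377, edgeR adjusted p = 0.832).

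**Figure D5:**
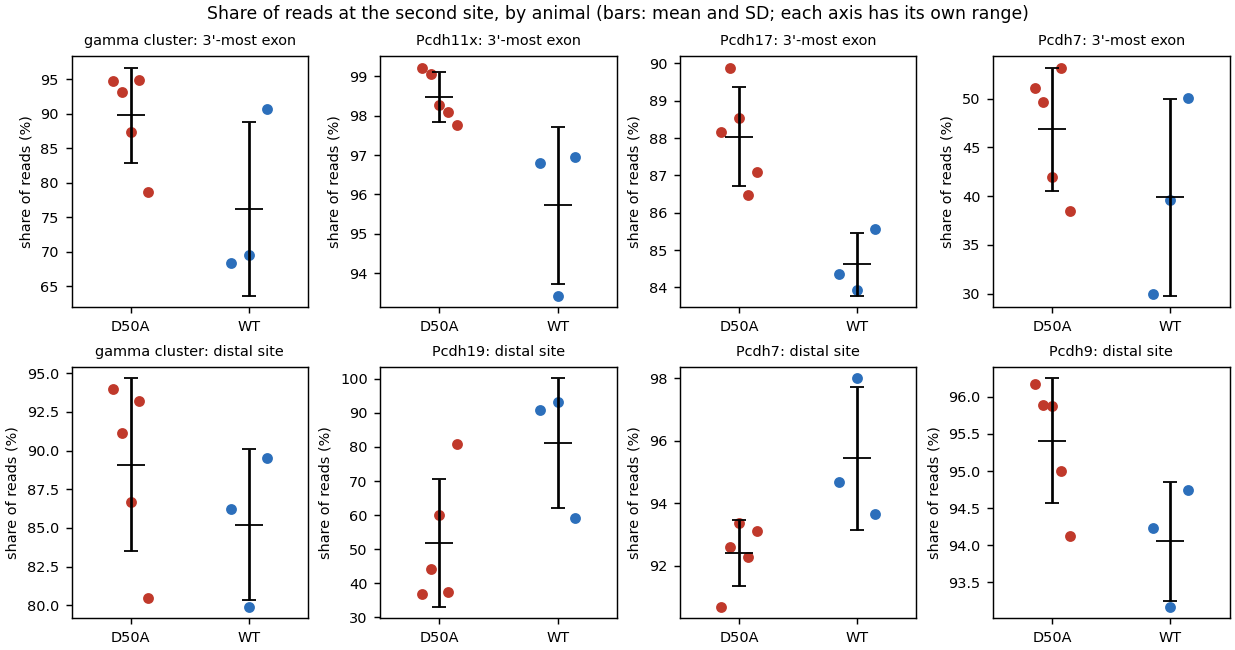
Share of reads at the second site in percent (vertical axes, each with its own range) for the 5 Cstf2 D50A animals (red, left) and the 3 wild-type animals (blue, right), with bars for the mean and SD. The upper panels give the 3′-most exon against an upstream exon and the lower panels the distal against the proximal site; the genotypes do not overlap for Pcdh11x and Pcdh17 above and for Pcdh7 below.

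Among the delta-2 genes, Pcdh19, the X-linked gene of an epilepsy with cognitive impairment in human females, had the widest difference in site usage of all protocadherins. Its proximal site had 576, 532, 270, 762 and 83 reads in mutants 1 to 5 and 33, 36 and 256 in wild types 1 to 3. The distal site, 4741 bases further, had 335, 422, 408, 456 and 350 reads in mutants and 331, 504 and 371 in wild types. In RPM the distal site ranged 1.23-fold over all libraries and the proximal site 27.8-fold. The distal share was accordingly 36.8%, 44.2%, 60.2%, 37.4% and 80.8% in mutants and 90.9%, 93.3% and 59.2% in wild types, with mutant 5 near wild types 1 and 2 and wild type 3 below mutant 3. Apart from a swap of wild types 1 and 2, this reversed the order of the libraries on the first component. The part of that axis in the share was not tested. The means of 51.9 ± 18.7% in mutants and 81.1 ± 19.1% in wild types (SD, n = 5 and 3) gave a log2 change of -2.39 (SE 0.863, unadjusted p = 0.0195, edgeR adjusted p = 0.375). An unadjusted p under 0.05 in this direction was found in 4.28% of pairs. The change was -3.47 without wild type 3 and -1.70 without wild type 2, and the adjusted p stayed between 0.0608 and 0.811 over the alternatives. The level of Pcdh19 was 6.06 ± 0.50 log2 CPM in mutants and 5.37 ± 0.34 in wild types (log2 change 0.73, SE 0.276, unadjusted p = 0.025, edgeR adjusted p = 0.337).

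Pcdh17, which promotes the extension of grouped axons and shapes corticobasal ganglia synapses in the mouse, had 350, 418, 417, 486 and 358 reads in the 3′-most exon of mutants and 302, 444 and 332 in that of wild types. Its share was 88.2%, 89.9%, 88.5%, 86.5% and 87.1% in mutants and 84.4%, 83.9% and 85.6% in wild types. All mutants lay above all wild types, as in 4.25% of all pairs of that table, and the Wilson intervals reached ±3.76 percentage points, more than the gap between the genotypes. The log2 change was 0.42 (SE 0.249, edgeR adjusted p = 0.442) and ran from 0.36 to 0.48 with 1 library left out. Its within-exon distal share was 92.4%, 92.9%, 88.3%, 89.6% and 81.5% in mutants and 86.55%, 80.1% and 93.6% in wild types, with overlap. The log2 change of 0.28 (SE 0.465, edgeR adjusted p = 0.777) turned to -0.18 without wild type 2. The level of Pcdh17 was 4.92 ± 0.07 log2 CPM in mutants and 4.76 ± 0.18 in wild types (edgeR adjusted p = 0.518).

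Pcdh10, the OL-protocadherin of striatal and thalamocortical axon growth, ended mainly in an upstream exon. That exon had 1314, 1464, 1378, 1917 and 845 reads in mutants and 678, 1032 and 1346 in wild types, and the 3′-most exon had 270, 265, 279, 309 and 244 in mutants and 170, 357 and 245 in wild types. Mutant 5 and wild type 2 had the highest shares of the 3′-most exon, at 22.4% and 25.7%. The means were 17.1 ± 3.23% in mutants and 20.4 ± 5.16% in wild types (SD, n = 5 and 3, log2 change -0.30, SE 0.275, edgeR adjusted p = 0.624). The change was -0.07 without wild type 2 and -0.54 without wild type 3. The distal share inside that exon was 61.4%, 60.5%, 64.3%, 50.0% and 44.5% in mutants and 57.2%, 46.75% and 50.5% in wild types, with overlap (log2 change 0.29, SE 0.32, edgeR adjusted p = 0.66, 0.14 without wild type 2 and 0.46 without mutant 5). Levels depended on the table, with a log2 change of 0.15 (SE 0.121, edgeR adjusted p = 0.487) for the within-exon sites and 0.39 (SE 0.187, adjusted p = 0.339) with the upstream reads, or 0.60 without wild type 3.

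The remaining non-clustered genes had fewer reads or smaller differences. Pcdh18, a delta-2 gene, averaged 66.6 reads per library, with levels of 2.61 ± 0.47 log2 CPM in mutants and 2.14 ± 0.17 in wild types (log2 change 0.54, SE 0.272, edgeR adjusted p = 0.349) and a distal share of 76.9 ± 6.85% in mutants and 79.7 ± 5.94% in wild types (adjusted p = 0.886). Pcdh20, with 879 bases between its sites, stood at 5.37 ± 0.26 log2 CPM in mutants and 5.27 ± 0.35 in wild types (edgeR adjusted p = 0.792), and its distal share was 64.5%, 67.05%, 71.9%, 57.8% and 71.4% in mutants and 76.4%, 70.5% and 63.0% in wild types (adjusted p = 0.689). Wild type 1 was highest and mutant 4 lowest. Pcdh15, a component of the hair cell tip link in the inner ear, averaged 28 reads per library, and its log2 changes of 0.89 in usage and 0.19 in level did not pass (edgeR adjusted p = 0.465 and 0.71).

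Clustered and non-clustered protocadherins cannot be compared by calls, because edgeR called 0% of all rows in each comparison. It called 0 of 11 distinct protocadherin rows in the within-exon table and 0 of 13 in the between-exon table, for usage and for level alike. At an unadjusted p under 0.05 there were 0 clustered and 1 non-clustered row in within-exon usage (13.1% of all rows), and 8 nested gamma rows and 1 non-clustered row in between-exon usage (14% of all rows). For level there were 1 non-clustered row in the within-exon table, Pcdh19, and 2 in the between-exon table, Pcdh7 and Pcdh11x, all higher in mutants. Of all rows, 14.6% and 15.2% had such a p, 7.47% and 7.69% in that direction. DESeq2 called none of them, where it called 0.281% of rows in within-exon usage and 0.333% in within-exon level. The median log2 change in level was 0.66 for the 2 clustered sets, 0.19 for the 9 non-clustered genes and 0.01 over all 7818 rows. All 11 lay above 0, as did 51% of all rows; all share the libraries whose order is given above. With the gamma cluster counted once, the 6 protocadherins of the between-exon table had a median of 0.47 in level, beside 0.01 over all rows, and of 0.42 in usage, beside 0.17. The within-exon median in usage was 0.38 for the clustered sets, 0.18 for the non-clustered genes and 0.11 over all pairs.

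Genes that set protocadherin promoter choice, by CTCF and cohesin looping or by silencing, were measured for 14 of 16 listed members in each table. None passed in any of the 4 comparisons, where edgeR called 0% of all rows. In within-exon usage, between-exon usage, within-exon level and between-exon level, 13.1%, 14%, 14.6% and 15.2% of all rows had an unadjusted p under 0.05. Of the list only Setdb1, a histone H3 lysine methyltransferase, had such a p, in between-exon usage and within-exon level. Its 3′-most exon held 75.3 ± 3.73% in mutants and 62.8 ± 5.79% in wild types (log2 change 0.86, SE 0.358, edgeR adjusted p = 0.315). All mutants lay above all wild types in this share, as in 4.25% of rows. Its within-exon level was 2.34 ± 0.48 log2 CPM in mutants and 1.72 ± 0.26 in wild types (adjusted p = 0.337). Ctcf itself stood at 6.54 ± 0.21 in mutants and 6.85 ± 0.27 in wild types (log2 change -0.31, SE 0.162, edgeR adjusted p = 0.353). The list's median log2 changes were -0.26 and 0.09 in usage and 0.01 and -0.01 in level for the within-exon and between-exon tables.

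Signalling partners of protocadherins, among them the kinases FAK and FYN, the WAVE complex and gamma-secretase, were measured for 26 of 36 members in the within-exon and 22 in the between-exon table, and none passed. At an unadjusted p under 0.05, 2 were higher and 2 lower in within-exon usage, 4 higher in between-exon usage, 3 higher in within-exon level, and 1 higher and 1 lower in between-exon level. Of all rows, 13.1%, 14%, 14.6% and 15.2% had such a p in these 4 comparisons. Ptk2, which encodes FAK, had the lowest unadjusted p of the list in level, 0.00674 and 0.0065 in the 2 tables. It stood at 5.50 ± 0.39 log2 CPM in mutants and 4.63 ± 0.43 in wild types in the within-exon table (log2 change 0.87, SE 0.255, edgeR adjusted p = 0.337). Its genotypes overlapped in level in both tables. Mapk14 lay below in mutants in between-exon level, at 4.26 ± 0.22 log2 CPM against 4.81 ± 0.385 in wild types, as did 2.52% of rows (log2 change -0.59, SE 0.194, edgeR adjusted p = 0.323). The 2 members lower in within-exon usage were Cntnap1 and Aph1a (log2 change -1.595 and -0.907). Ryk, a Wnt receptor, had 99.1 ± 0.353% of its reads in the 3′-most exon in mutants and 96.7 ± 1.91% in wild types (log2 change 1.83, SE 0.528, edgeR adjusted p = 0.268). Median log2 changes of the list were 0.11 and 0.32 in usage and 0.14 and 0.09 in level for the within-exon and between-exon tables.

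Other cadherins (classical cadherins, Celsr, Fat, Dchs and calsyntenin genes) were measured for 12 of 25 members in the within-exon and 21 in the between-exon table, and none passed. At an unadjusted p under 0.05, 0 stood out in within-exon usage, 2 were higher and 1 lower in between-exon usage, 2 higher and 1 lower in within-exon level, and 3 higher and 2 lower in between-exon level, beside 13.1%, 14%, 14.6% and 15.2% of all rows. The genotypes separated in level for Fat3, a giant cadherin of retinal neuron shape, at 5.50 ± 0.09 log2 CPM in mutants and 5.06 ± 0.04 in wild types (log2 change 0.44, SE 0.116, edgeR adjusted p = 0.337). They also separated for Cdh6, at 2.3 ± 0.34 in mutants and 1.60 ± 0.23 in wild types (log2 change 0.74, SE 0.245, adjusted p = 0.337). Mutants lay above wild types in 2.42% of all rows of that table. For level in the between-exon table Fat3 and Cdh6 again lay above in mutants (log2 change 0.32 and 0.56, edgeR adjusted p = 0.323 each), as did 2.29% of rows. Clstn2, named after its values were seen, also lay above (0.29, adjusted p = 0.353). Cdh18 lay below in mutants there, at 4.69 ± 0.21 log2 CPM, against 5.16 ± 0.36 in wild types (log2 change -0.49, SE 0.181, edgeR adjusted p = 0.323), as did 2.52% of rows.

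Markers of brain regions and cell types also differed between the libraries, and their part in the protocadherin values was not tested. Summed levels of 11 of 16 cerebellar granule cell markers ran from 4837 to 8173 CPM in mutants (median 5104) and from 6052 to 8801 in wild types (median 6308). Of these 11 genes, 9 had an unadjusted p under 0.05 with a lower level in mutants and 0 with a higher one, beside 7.11% of all rows lower. Summed levels of 8 of 14 Purkinje cell markers ran from 607.1 to 989.4 in mutants and from 930.7 to 1054 in wild types. In both lists mutant 5 was the highest mutant. Excitatory forebrain markers (10 of 12) ran from 8019 to 9741 CPM in mutants and from 4906 to 8630 in wild types, and oligodendrocyte markers (13 of 17) from 3874 to 4806 in mutants and from 4474 to 5679 in wild types. Endothelial and pericyte markers (4 of 10) stood at 585, 519.7, 393, 630.8 and 299.5 CPM in mutants and 277.2, 263.7 and 458 in wild types, close to the order of the gamma cluster. Astrocyte markers (6 of 10) ran from 3766 to 4284 CPM in mutants and from 4471 to 4787 in wild types, without overlap. Interneuron markers (8 of 10) ran from 1483 to 1827 in mutants and from 1750 to 1844 in wild types. Microglia markers (4 of 10) ran from 244.9 to 283.6 in mutants and from 234.4 to 302.4 in wild types, and choroid plexus markers (4 of 8) from 1179 to 1954 in mutants and from 1464 to 1733 in wild types. At an unadjusted p under 0.05, 1 Purkinje marker was higher and 3 lower, and 1 forebrain marker was higher. Oligodendrocyte markers had 3 higher and 2 lower, and interneuron markers 2 higher and 1 lower. Astrocyte markers had 2 lower, choroid plexus markers 1 in each direction, and microglia and endothelial markers none. Of all rows, 7.47% were higher and 7.11% lower. In the between-exon table Purkinje markers (6 of 14) ran from 707.9 to 1120 CPM in mutants and from 1133 to 1178 in wild types, and astrocyte markers (4 of 10) from 2957 to 3817 in mutants and from 3903 to 5059 in wild types, both without overlap. The genotypes overlapped in every other list of that table. Granule cell markers (4 of 16) ran there from 204.9 to 647.6 CPM in mutants and from 461.9 to 574.7 in wild types. Interneuron markers (4 of 10) ran from 488.6 to 1105 in mutants and from 1040 to 1528 in wild types. None of the markers was at 0 in any library of the within-exon table.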

How the data were processed

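Brain RNA was made into QuantSeq REV libraries, which read from the poly(A) tail, according to the labels' protocols. In the submitters' processing notes STAR 2.5, HTSeq 0.6.0, FastQC 0.11.3 and the build mm9 appear, with no role. The picking of sites and any use of strand are not given in the sources used here. Overlapping genes and close paralogs therefore cannot be separated. The authors deposited raw read counts, whole numbers for each site in each library, and 0 value columns were left unused. Libraries of a genotype differed by a chi-square per degree of freedom of 3.34 to 69, so none was a copy of another. Animals are separate by label, and no batch or pairing is named.

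Rows with identical counts at both sites in all libraries were kept once (81 of 7951 rows formed 23 sets, and 23 of 6147 formed 5), leaving 7893 and 6129. Pairs averaging 20 or more reads per library, with 10 or more at each site in all, were tested (7818 and 5983). Usage was tested on the counts with edgeR 4.0.16 (quasi-likelihood F test) on the site-by-genotype term, each library being a block. Level used both sites added together and TMM scaling. Both were adjusted by Benjamini-Hochberg over the whole table, at a threshold of 0.05. A positive log2 change means more distal or 3′-most exon reads, or a higher level, in mutants. SE is the absolute log2 change divided by the root of the F statistic. Log2 CPM used a prior count of 2. Wilson intervals of shares (95%) cover counting error only. The tables share reads. The fits were also run on simulated counts. R 4.3.3, limma 3.58.1 and DESeq2 1.42.0 were also used.

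The members, gene lists and marker lists were chosen with earlier results of these data known. The rule for named genes asked for values in every sample where an unadjusted p was under 0.05 or the genotypes did not overlap. It also asked for them for protocadherins with the most reads. Shares or site counts follow this rule. Several levels, among them those of Pcdh19 and Pcdh11x, are printed by mean and SD or by log2 change instead. Other protocadherins are given in that way too, and the overlapping gamma rows by 2 of them. From each list up to 4 genes of lowest p could be named. The principal component analysis, the nested gamma counts and RPM per site were added after the values had been seen. Gene order came from RefSeq (GRCm38.p6), in which all 46 symbols matched.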

Additional observations from a re-analysis of the deposited data

Results flagged for a closer look

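The level of Pcdh11x in the between-exon table was 4.01 log2 CPM in mutant 5, where the other mutants stood at 4.96 to 5.13, a gap of 0.85 of the range of the 5 mutants, above the critical value of 0.71. This was the only such case among 48 groups of mutant values examined, and chance flags about 1 in 20. Mutant 5 had 131 reads of Pcdh11x in the 3′-most exon, against 256 to 358 in the other mutants.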

How the results depend on the processing

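No paired analysis was possible because the labels give no replicate number shared by the genotypes. edgeR called 0 rows in all 4 comparisons, and limma, no filter, a stricter filter, all rows as deposited and, for level, scaling to the table's total called 0 as well. DESeq2 called 22 in within-exon usage (16 higher, 6 lower), 5 in between-exon usage, 26 in within-exon level and 0 in between-exon level, none of them a protocadherin. Leaving out 1 library gave 0 to 1 calls in within-exon usage, 0 to 232 in between-exon usage, 0 to 72 in within-exon level and 0 to 74 in between-exon level. The 232, 72 and 74 arose without mutant 5, the 1 without wild type 3, and 130 in between-exon usage also without wild type 3, and the cause was not tested. Among protocadherins, only gamma rows in between-exon usage passed in such fits. Of the protocadherin values recomputed with 1 library left out, 364 kept their direction and side of the threshold, 14 newly passed and 6 turned in direction; under the other settings all 260 kept both. These ranges in usage within the exon were -0.43 to 0.14 for Pcdh18, -0.17 to 0.47 for Pcdh1, -0.18 to 0.73 for Pcdh17 and -0.37 to 0.81 for the alpha cluster, and in level -0.0711 to 0.29 for Pcdh20. Pooling the 8 gamma rows counts reads repeatedly. It gave a log2 change of 1.503 in usage. The wild-type mean rests on 3 animals, and low proximal or upstream reads limit the shares of Pcdh15, Pcdh18, Pcdh7 and Pcdh11x.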
